A study of Mus musculus with 21 samples.

Results

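Named pseudogenes are the 257 genes, of 12994 in the expression table, whose name is that of another gene followed by -ps and often a number, as in Tpt1-ps3. They were chosen by name alone, and each was described beside its parent, the gene named before -ps. The 257 names point to 127 parents, of which 105 were themselves in the table, so 233 pseudogenes had a measured parent and 24 did not. Expression was measured in CD4+ T cells (LT4) and CD8+ T cells (LT8) sorted from the spleen of female C57BL6/J mice. The mice spent 4 weeks, from weaning at 4 weeks of age, either in an enriched environment (EE, a large cage with running wheels, tunnels and toys that were exchanged regularly) or in a standard environment (SE, a smaller cage without objects). There were 6 LT4 EE, 5 LT4 SE, 6 LT8 EE and 4 LT8 SE samples, each from 1 mouse, and 9 mice gave both populations. The labels say that mice raised in one environment shared a cage, so cage and environment cannot be told apart. No other treatment is named in the labels.

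A processed pseudogene arises when the messenger RNA of a gene is copied back into DNA and inserted elsewhere in the genome, so it lacks the introns of its parent. Highly transcribed housekeeping genes, above all those for ribosomal proteins, have left many such copies. Young copies remain nearly identical to the parent, and a short read from one can then match the other equally well, whereas older copies carry differences that tell the reads apart.

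The name did not fully match the annotation. Of the 256 pseudogenes found in GENCODE release M21 (GRCm38), 232 were annotated as processed or transcribed processed pseudogenes. The other 24 were not: 8 were annotated as protein coding (Rps12-ps3, Rpl9-ps1, Rpl9-ps6, Rpl10-ps3, Rpl36a-ps1, Nutf2-ps1, Tes3-ps and Atg4a-ps), and 9 as transcribed unprocessed, 4 as unprocessed, 2 as transcribed unitary and 1 as polymorphic pseudogenes. One name, Cox20-ps, had no match. Of the 257 pseudogenes, 170 carried the name of a ribosomal protein gene, from 56 parents, and these held 93.1% of all molecules counted for named pseudogenes. The largest family was that of Rpl31, a protein of the large ribosomal subunit, with 15 pseudogenes. The copies were spread over 20 chromosomes, and only 10 of the 235 with a placed parent lay on the chromosome of the parent.

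Each pair of sequences below shows a stretch of 60 bases with the most differences between a pseudogene and the coding sequence of its parent, with differing bases in capitals. They were chosen because the results turn on these genes. All are GENCODE M21 transcript sequences, read 5′ to 3′. Tpt1-ps3 (chr6:99877816-99878334, minus strand) and Trmt112-ps2 (chr4:149457329-149457706, plus strand) had no difference from the parent over their whole length of 519 and 378 bases, so 1 line, the first 60 coding bases, stands for both genes of a pair.
Tpt1-ps3 and Tpt1: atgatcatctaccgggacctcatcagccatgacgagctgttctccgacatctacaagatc
Trmt112-ps2 and Trmt112: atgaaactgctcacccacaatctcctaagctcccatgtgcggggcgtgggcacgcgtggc
Rps18-ps3 (chr8:107262793-107263248, minus strand) differed from Rps18 at 3 of 456 bases, 1 of them in this stretch.
Rps18-ps3: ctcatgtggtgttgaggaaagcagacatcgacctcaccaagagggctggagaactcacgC
Rps18: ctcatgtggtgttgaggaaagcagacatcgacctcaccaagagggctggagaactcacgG
Rps19-ps6 (chr12:110898114-110898551, plus strand) differed from Rps19 at 5 of 438 bases, 3 of them here.
Rps19-ps6: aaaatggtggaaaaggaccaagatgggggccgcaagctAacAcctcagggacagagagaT
Rps19: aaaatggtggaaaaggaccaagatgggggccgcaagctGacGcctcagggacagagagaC
Oaz1-ps (chr17:17345456-17346140, minus strand) had 1 mismatch and 1 gap base over 685 bases.
Oaz1-ps: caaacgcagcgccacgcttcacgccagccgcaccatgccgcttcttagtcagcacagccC
Oaz1: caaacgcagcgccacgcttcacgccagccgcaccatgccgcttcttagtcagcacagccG
Rpl22-ps1 (chrX:8038611-8038996, minus strand) had 12 mismatches and 13 gap bases over 386 bases.
Rpl22-ps1: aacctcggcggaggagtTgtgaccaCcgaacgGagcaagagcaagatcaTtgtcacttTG
Rpl22: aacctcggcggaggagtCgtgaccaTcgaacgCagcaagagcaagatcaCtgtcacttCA
Rpl9-ps3 (chr11:53501184-53501759, plus strand) had 45 mismatches over 576 bases, and was singled out after its level was seen.
Rpl9-ps3: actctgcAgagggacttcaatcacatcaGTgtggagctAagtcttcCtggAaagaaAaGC
Rpl9: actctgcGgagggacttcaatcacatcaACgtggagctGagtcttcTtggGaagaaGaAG

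Over the 231 pseudogenes with at least 50% of their length aligned to a parent transcript, the median identity was 98.4%, the lowest was 64.7% for Wdr46-ps, and 21 were identical to the parent over the alignment. A further 4 (Rpl18-ps1, Gpr137b-ps, Pisd-ps2 and Rpl28-ps2) aligned over a shorter part and were given no identity. The sequenced templates were at least 50 bases long, so each pseudogene transcript was also cut into all its windows of 50 bases. For 30 of 256 pseudogenes, every such window also occurred in the transcripts of another gene. Tpt1-ps3, Trmt112-ps2, Rps16-ps2 and Rps12-ps3 were among them, and every window of these 4 was present in the parent. Molecules were counted with the default settings of the counting tool, and the sources used here do not spell out what these do with reads that match several genes. A read of 50 bases from within such a pseudogene transcript could not be told apart by sequence from one of the gene that shares it. At the other end, 255 of 337 windows of Rpl22-ps1 and 495 of 527 windows of Rpl9-ps3 occurred in no other annotated gene. Reads were kept only if they began with an adaptor and the molecular identifier, so they need not fall evenly over these windows. Where they fell was not checked, and window counts do not show how many of the sequenced reads could be told apart.

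Values are normalized counts, that is, unique molecules divided by the size factor of the sample. A molecule was counted once whatever its length, so levels of 2 genes were compared as numbers of molecules and were not scaled by length. Total molecules per sample ranged from 145546 to 221454 with a median of 182470. Cd4 was at 42.7 to 85.8 in the LT4 samples and at most 0.966 in the LT8 samples, while Cd8a and Cd8b1 together were at 1.26 to 9.15 in LT4 and at 275 or more in LT8. The 4 B-cell markers used (Cd79a, Cd79b, Ms4a1, Cd74) summed to 13.4 to 231 in LT4 and to 0.931 to 48.9 in LT8. The 4 haemoglobin genes summed to 578 in LT8 EE replicate 6 and to 1028 in LT8 SE replicate 3, and to at most 26.7 in the other samples. In bulk samples, fewer cells of a type and less RNA per cell cannot be told apart.

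Most named pseudogenes were rare and a few were abundant. Over the 21 samples, 130 of 257 had a mean above 2, of which 108 carried a ribosomal protein name, 67 had a mean above 10 and 12 a mean above 100. In every sample, 97 pseudogenes were detected. The 12 above 100 held 46.7% of the molecules of the set, and 11 of them were ribosomal. They were led by Rps19-ps6, a copy of a small-subunit protein gene, at 530.8, followed by Rpl21-ps15 at 300.6, Rps16-ps2 at 220.5, Rps12-ps3 at 205, Rpl17-ps5 at 200.4, Rpl39-ps at 159 and Rps10-ps2 at 151. Rpl34-ps1 at 137, Oaz1-ps at 128, Rpl35a-ps6 at 124, Rpl22-ps1 at 116 and Rpl36-ps3 at 101 completed them.

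These levels were below those of the parents in all but 1 case. Among the 123 pseudogenes with a mean above 2 and a measured parent, 122 had a lower mean than the parent. The share of a pseudogene in the sum of pseudogene and parent had a median of 3.79%, was under 1% for 34 and over 10% for 36. The lowest shares were those of Rps19-ps4 (0.262%), Tpt1-ps5 (0.294%) and Rpl19-ps12 (0.314%), and Rps19-ps6 (38.7%) and Rpl21-ps15 (37.3%) had the highest after Oaz1-ps. When all pseudogenes of a parent were added up, the median share was 7.66% over the 105 measured parents and 12.1% over the 60 with a pseudogene above a mean of 2, and the 6 of Rpl17 together reached 41.5%. The scatter of pseudogene against parent levels shows most ribosomal parents in a narrow band of high levels, with their copies spread widely below them.

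**Figure D1:**
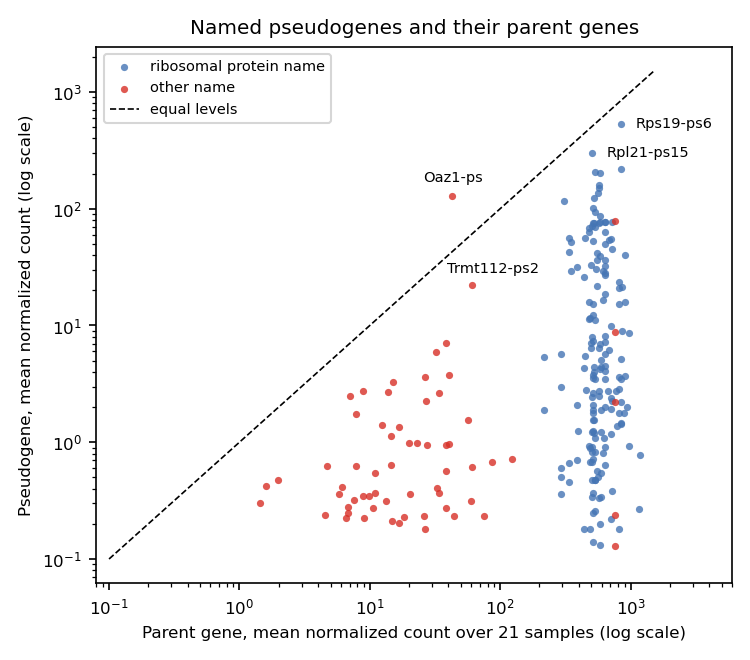
Mean normalized count over 21 samples of each named pseudogene (vertical axis, log scale) against that of its parent gene (horizontal axis, log scale), with 1 point per pseudogene, blue for ribosomal protein names and red for others, and a dashed line of equal levels. Among pseudogenes above 2, Oaz1-ps alone lies above the line, at 128 against 42.9 for Oaz1.

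Oaz1-ps was the exception to this pattern. Oaz1 encodes antizyme 1, an inhibitor of ornithine decarboxylase and so of polyamine synthesis. In LT4 EE samples Oaz1-ps ranged from 120.8 to 174 with a median of 146, and Oaz1 itself had a median of 42.6. In LT4 SE samples Oaz1-ps was at 130, 121, 123, 109 and 133. In LT8 it was at 89.3 to 133 with a median of 126 in EE and at 110, 132, 145 and 88.4 in SE. Its share of the sum with Oaz1 was 76.6% ± 3.43 (SD, n = 6) in LT4 EE, 73.1% ± 3.16 (n = 5) in LT4 SE, 74.7% ± 4.50 (n = 6) in LT8 EE and 73.3% ± 3.09 (n = 4) in LT8 SE, so the pseudogene row was the larger of the pair in all groups. Of the 636 windows of Oaz1-ps, 50 were its own and 92.1% also occurred in Oaz1, and the division of molecules between the 2 rows was not checked over that shared sequence. A further annotated gene, AC154200.1, overlaps Oaz1-ps on the same strand, and molecules of the 2 cannot be told apart there.

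Rps19-ps6 and Rpl21-ps15 kept a nearly fixed proportion to their parents. Rps19-ps6 was at 516 ± 69.8 in LT4 EE (n = 6), 533 ± 55.9 in LT4 SE (n = 5), 543 ± 38.7 in LT8 EE (n = 6) and 532 ± 52.5 in LT8 SE (n = 4), and its share ranged only from 36.1% to 41.0% over all samples. The groups overlapped. Rps19-ps6 lies within Tecpr2 on the same strand. Rpl21-ps15, a copy of a large-subunit protein gene, was at 279 ± 31.4, 306 ± 48.1, 316 ± 26.0 and 303 ± 42.6 in the same order of groups, with shares of 36.6% to 38.3% on average.

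Abundant pseudogenes were on the whole the ones closest in sequence to the parent. Median identity was 99.5% for the 64 aligned pseudogenes with a mean above 10, 98.2% for 58 with a mean above 2 and up to 10, and 96.8% for 109 with a mean up to 2. Of the 21 identical pseudogenes, 16 had a mean above 10. The plot of level against identity shows copies that combined a high level with lower identity, Rpl22-ps1 at 116 with 93.5% identity and Rpl9-ps3 at 50.3 with 92.2%. Slc2a4rg-ps, a transcribed unitary pseudogene with no parent in the table, had a mean of 15.0, and all of its 2927 windows were its own.

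**Figure D2:**
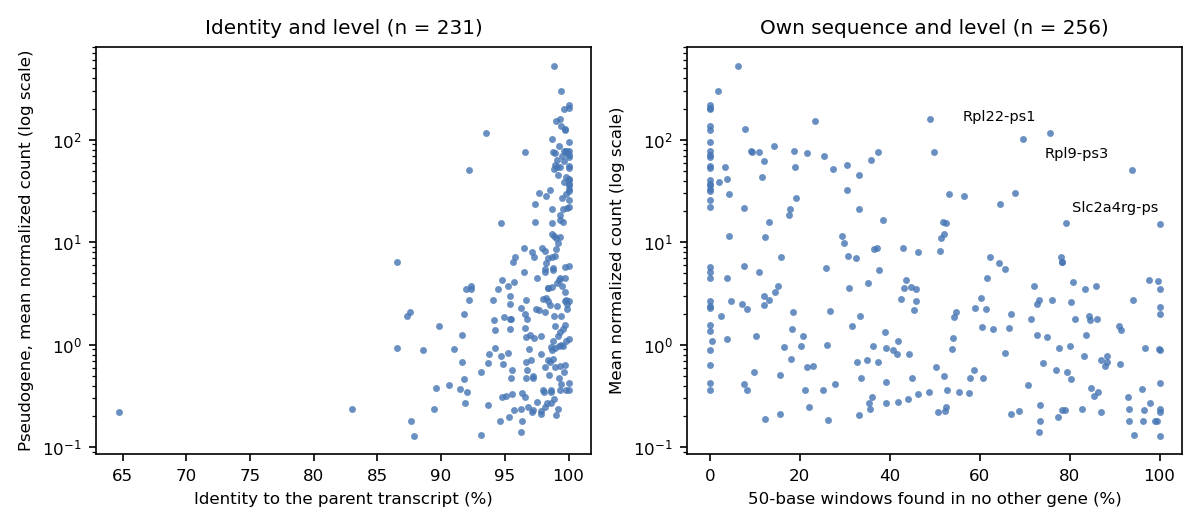
Mean normalized count (log scale) of each named pseudogene against its percent identity to the parent transcript (left) and against the percent of its 50-base windows found in no other annotated gene (right), with 1 point per pseudogene. Median identity was 99.5% above a mean of 10 and 96.8% up to a mean of 2. The 3 labelled points, Rpl22-ps1, Rpl9-ps3 and Slc2a4rg-ps, are examples of named pseudogenes above a mean of 10 with mostly own sequence, chosen after values were seen.

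Named pseudogenes together made up a smaller part of the molecules in LT4 EE than in the other 3 groups. Their share was 2.56% ± 0.108 (SD, n = 6) in LT4 EE, with a range of 2.44% to 2.72%. It was 3.15%, 2.93%, 3.10%, 2.55% and 3.29% in LT4 SE replicates 1, 3, 4, 5 and 6, and 3.02% ± 0.146 (n = 6) in LT8 EE. In LT8 SE it was 3.41%, 3.36%, 3.04% and 2.60% in replicates 1, 2, 3 and 6. LT4 SE replicate 5 and LT8 SE replicate 6 thus lay within the LT4 EE range, and every other sample lay above it. The parents held 20.5%, 20.3%, 21.4% and 21.0% on average in LT4 EE, LT4 SE, LT8 EE and LT8 SE. The 937 other processed pseudogenes of the table, named without -ps, held 4.96%, 5.83%, 5.68% and 5.93%. The LT4 EE samples included the shallowest library, at 145546 molecules, and the deepest of them had 183941.

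**Figure D3:**
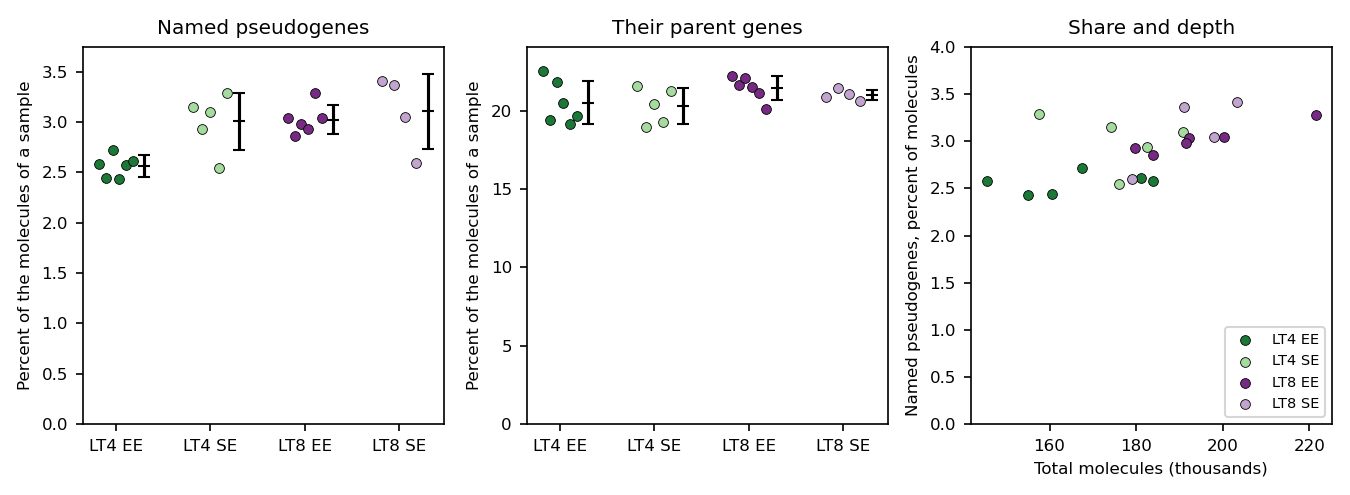
Percent of the molecules of a sample that came from named pseudogenes (left) and from their parents (middle) by group, with 1 point per sample and bars of mean ± SD, and the pseudogene percent against total molecules (right). The 6 LT4 EE samples lie between 2.44% and 2.72%, and 1 LT4 SE and 1 LT8 SE sample lie in the same range.

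The first comparison asked whether the environment changed the named pseudogenes in CD4+ T cells. In LT4, pseudogene levels were mostly a little lower in EE than in SE while the parents were not, but no single pseudogene passed the test. Of 124 pseudogenes tested, 110 had a log2 fold change (EE minus SE) below 0, beside 49.9% of all 7939 genes tested. The median log2 fold change was -0.27, beside 0.00 for all genes and 0.02 for the 103 parents tested, of which 44 were below 0. Among pseudogenes of ribosomal protein genes 97 of 105 were below 0 with a median of -0.28, and among those of other names 13 of 19 with a median of -0.18. The other processed pseudogenes, which did not enter the choice by name, had 233 of 292 below 0 with a median of -0.25. None of the 124 had an adjusted p under 0.05 with limma (background 0.0126% of genes), edgeR or DESeq2. At an unadjusted p under 0.05, 21 were lower (background 2.9%) and 1 was higher (background 2.92%) in the limma fit, with 5.82% of all genes under it in either direction.

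The direction was shared by pseudogenes with no window of their own and by those with 1 or more. A pseudogene in the latter class can still share most of its sequence with the parent. The split therefore does not separate its molecules from those of the parent, and the cause of the direction was not tested. Of the 24 pseudogenes without a window of their own, 23 were below 0 with a median of -0.33, and of the 100 with 1 or more, 87 with a median of -0.26. Of 30 under 98% identity, 26 were below 0, with a median of -0.36. Of 77 that overlap no other annotated gene, 69 were below 0. With total molecules as a term of the fit the median of the set was -0.28, and with the B-cell marker sum it was -0.29. Without LT4 SE replicate 5 it was -0.35, and without LT4 SE replicate 6 it was -0.21.

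**Figure D4:**
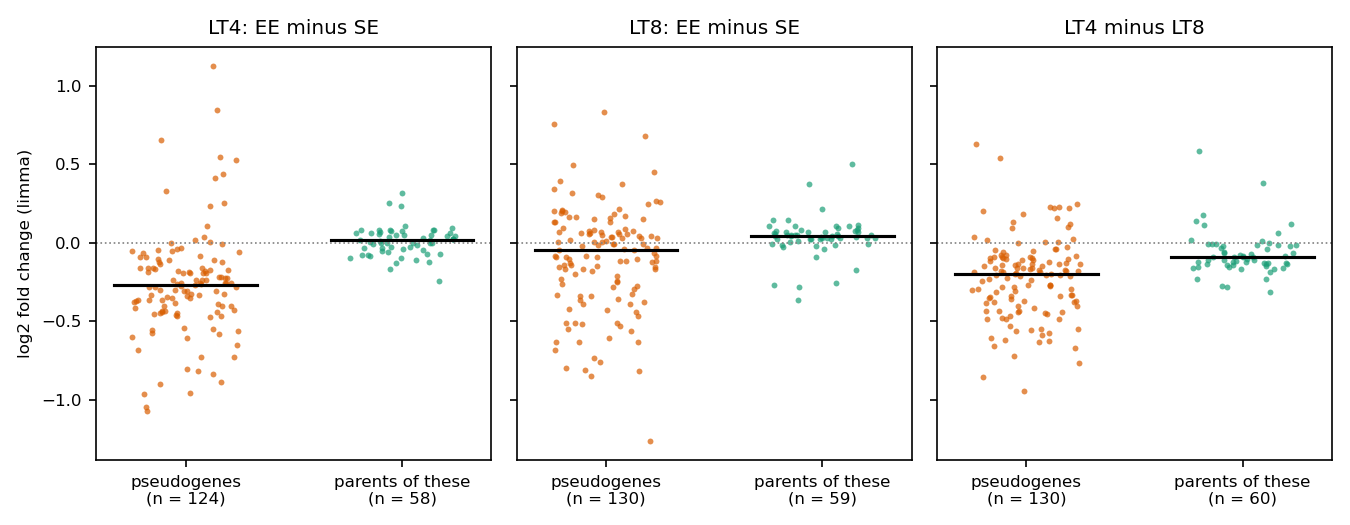
Log2 fold change from limma on log2(normalized count + 1) for each named pseudogene tested and for the parents of these, with 1 point per gene and a black line at the median, for EE minus SE in LT4 (left), EE minus SE in LT8 (middle) and LT4 minus LT8 (right). The pseudogene medians are -0.27, -0.05 and -0.20, and those of the parents lie closer to 0 in LT4 and in the comparison of populations.

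Tpt1-ps3 had the smallest limma p of the set in LT4. Tpt1 encodes the translationally controlled tumour protein, an abundant housekeeping protein. Tpt1-ps3 ranged from 29.0 to 77.0 with a median of 55.9 in LT4 EE, and was at 90.6, 90.6, 64.9, 70.3 and 93.5 in LT4 SE. The 3 higher EE samples overlapped the 2 lower SE samples. The log2 fold change was -0.60 ± 0.19 (SE, unadjusted p = 0.00199, limma adjusted p = 0.629), and that of Tpt1 was 0.05 ± 0.08, with means of 774.5 in EE and 745.3 in SE.

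Trmt112-ps2 and Rps24-ps3 followed. Trmt112 encodes an activator of several RNA and protein methyltransferases. Its copy ranged from 8.91 to 20.3 with a median of 14.4 in LT4 EE and was at 25.7, 24.7, 21.9, 16.1 and 28.2 in LT4 SE, so only 1 sample of each group reached into the other. The log2 fold change was -0.73 ± 0.26 (limma adjusted p = 0.681), and Trmt112 itself differed by -0.06 ± 0.17. Rps24-ps3 was at 2.52 to 4.57 in 5 LT4 EE samples and at 12.9 in replicate 6, against 14.4, 10.1, 8.23, 7.60 and 13.5 in SE. Its log2 fold change was -1.07 ± 0.38 (limma adjusted p = 0.690), beside 0.02 ± 0.08 for Rps24.

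The one pseudogene higher at an unadjusted p under 0.05 was Ube2d-ps, an unprocessed copy named for a ubiquitin-conjugating enzyme, with no parent in the table. It was at 2.52 to 6.44 with a median of 5.42 in LT4 EE and at 6.18, 0.915, 0, 7.60 and 0 in LT4 SE, and the groups overlapped. Its log2 fold change was 1.13 ± 0.54 (limma adjusted p = 0.835). Rpl19-ps1 was the only pseudogene whose LT4 EE samples all lay below all SE samples (34.3 to 42.8 against 43.2 to 58.5), and 0.239% of all genes did so. This copy overlaps another gene on each strand, and its adjusted p was 0.855 in limma. Of the 12 most abundant copies, 11 had a negative log2 fold change in LT4, from -0.33 for Rpl34-ps1 to -0.05 for Rps19-ps6, and Oaz1-ps had one of 0.23 ± 0.13. None of the 12 passed the test.

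In CD8+ T cells the same comparison gave a median near 0. Of 130 pseudogenes tested, 74 had a log2 fold change below 0, beside 51.0% of 7840 genes, and the median was -0.05, beside -0.01 for all genes. Most measured parents of these pseudogenes had a log2 fold change above 0. The 67 pseudogenes with a mean above 10 over the 21 samples had 33 below 0 and a median of 0.00. None passed with limma (background 0.0%), edgeR or DESeq2. At an unadjusted p under 0.05, 3 were lower (background 2.16%) and 1 was higher (background 3.11%), with 5.27% of all genes in either direction. Without the 2 samples with high haemoglobin counts the median was -0.08, and without LT8 SE replicate 6 it was -0.12.

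Tpt1-ps3 again had the smallest limma p. It ranged from 56.9 to 91.2 with a median of 77.5 in LT8 EE and was at 129, 138, 111 and 67.3 in LT8 SE replicates 1, 2, 3 and 6. Replicates 1, 2 and 3 lay above every EE sample and replicate 6 lay among them. The serial number in the label of LT8 SE replicate 6 lies outside the run of numbers of the other 20 samples, and the labels do not say what the number stands for. The log2 fold change was -0.51 ± 0.15 (limma adjusted p = 0.661), beside -0.01 ± 0.05 for Tpt1. Without LT8 SE replicate 6 it was -0.73 with an adjusted p of 0.0165 in limma, so 1 library decided this call.

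Rps2-ps6 was lower in LT8 EE by -1.26 ± 0.43 on the log2 scale (limma adjusted p = 0.680), with EE samples from 0.930 to 7.73 and SE samples at 13.7, 7.45, 9.71 and 7.69. Rpl35a-ps2 (2.37 to 5.83 in EE, 7.71, 6.52, 7.95 and 7.69 in SE) had all EE samples below all SE samples, as did 0.548% of genes. Rpl31-ps12 (6.87 to 12.6 in EE, 6.00, 5.59, 3.53 and 3.84 in SE) had all of them above, as did 0.51% of genes. Their limma adjusted p was 0.932 and 0.923. Rpl35a-ps2 had no window of its own, and Rpl31-ps12 lies within Spag6l on the same strand.

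The difference between the environment effects of the 2 populations was tested as an interaction (the LT4 difference minus the LT8 difference). Of 130 pseudogenes, 97 were below 0, beside 49.5% of 7938 genes, with a median of -0.20, beside 0.00 for all genes and -0.02 for the parents. None passed with limma (background 0.0%), edgeR or DESeq2, and at an unadjusted p under 0.05 there were 9 below (background 2.56%) and 1 above (background 2.39%) in limma, with 4.95% of all genes in either direction. The smallest p belonged to Rpl36-ps2 at -0.59 ± 0.21, Rpl30-ps1 at -1.28 ± 0.48 and Rpl3-ps2 at -0.63 ± 0.24, copies of large-subunit protein genes whose limma adjusted p was 0.924, 0.938 and 0.975. For Tpt1-ps3 the interaction was -0.09 ± 0.26 (limma adjusted p = 0.994). With the mouse as replicate block, which keeps only the 9 mice with both populations, the median of the set was -0.32, and without LT8 SE replicate 6 it was -0.0975.

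The second main comparison was between the populations, LT4 minus LT8, with both environments weighted equally. Pseudogenes were lower in LT4 for 111 of 130 tested, beside 51.1% of 7938 genes, with a median log2 difference of -0.20, beside -0.01 for all genes and -0.08 for the 102 parents tested. The 82 ribosomal protein genes tested were themselves lower in LT4 for 77, with a median of -0.09. At the adjusted threshold, 2 pseudogenes were called, both lower in LT4 (background 4.4% in either direction and 2.07% lower), and 5 parents were called lower. At an unadjusted p under 0.05, 26 pseudogenes were lower and 0 higher (background 7.41% in each direction and 14.8% in both). The number of adjusted calls among pseudogenes was thus near the background share. The B-cell markers were higher in LT4 by the values given above, and with their sum in the fit the median of the set was -0.21 and 0 pseudogenes were called. With total molecules in the fit the median was -0.14 and 0 were called.

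Tpt1-ps3 was lower in LT4 by -0.45 ± 0.13 on the log2 scale (limma adjusted p = 0.0264), while Tpt1 differed by 0.02 ± 0.05. Group means were 56.2 ± 19.9 in LT4 EE, 76.2 ± 13.8 in LT8 EE, 82.0 ± 13.3 in LT4 SE and 111 ± 31.4 in LT8 SE, the error being the SD. Neighbours in that order overlapped. As a share of the sum with Tpt1 this was 6.67% ± 1.90, 9.27% ± 1.54, 9.90% ± 1.42 and 12.8% ± 2.75. With the mouse as replicate block, over the 9 mice with both populations, the difference was -0.30 with an adjusted p of 0.244 in limma, so the call was lost. It was also lost when any of 9 single libraries was left out, with adjusted p-values of 0.0808, 0.0507 and 0.0502 without LT4 EE replicates 4, 5 and 6, 0.0661 and 0.0569 without LT4 SE replicates 4 and 5, 0.0557 without LT8 EE replicate 1, and 0.0966, 0.115 and 0.055 without LT8 SE replicates 1, 2 and 3, all from limma.

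Rps18-ps3, a copy of a small-subunit protein gene, was lower in LT4 by -0.37 ± 0.12 (limma adjusted p = 0.0484), beside -0.13 ± 0.05 for Rps18. It ranged from 34.5 to 52.6 with a median of 40.6 in LT4 EE, was at 62.8, 54.0, 54.9, 42.7 and 56.3 in LT4 SE, ranged from 44.4 to 67.0 with a median of 65.7 in LT8 EE and was at 65.9, 78.2, 63.6 and 45.2 in LT8 SE. The LT4 EE samples were mostly the lowest, and all groups overlapped. The call was lost with the mouse as replicate block (-0.27, limma adjusted p = 0.328) and in 17 of 21 fits without 1 library, with adjusted p-values from 0.0505 to 0.172 in limma, and it remained in those without LT4 EE replicate 6, LT4 SE replicate 1, LT8 EE replicate 2 or LT8 SE replicate 6. Trmt112-ps2 came next, at -0.53 ± 0.17 (limma adjusted p = 0.0547), and Trmt112 itself was at -0.31 ± 0.11 (limma adjusted p = 0.116). Of the parents of pseudogenes named here, Mrps36 was called, at -0.73 ± 0.20 (limma adjusted p = 0.0174).

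**Figure D5:**
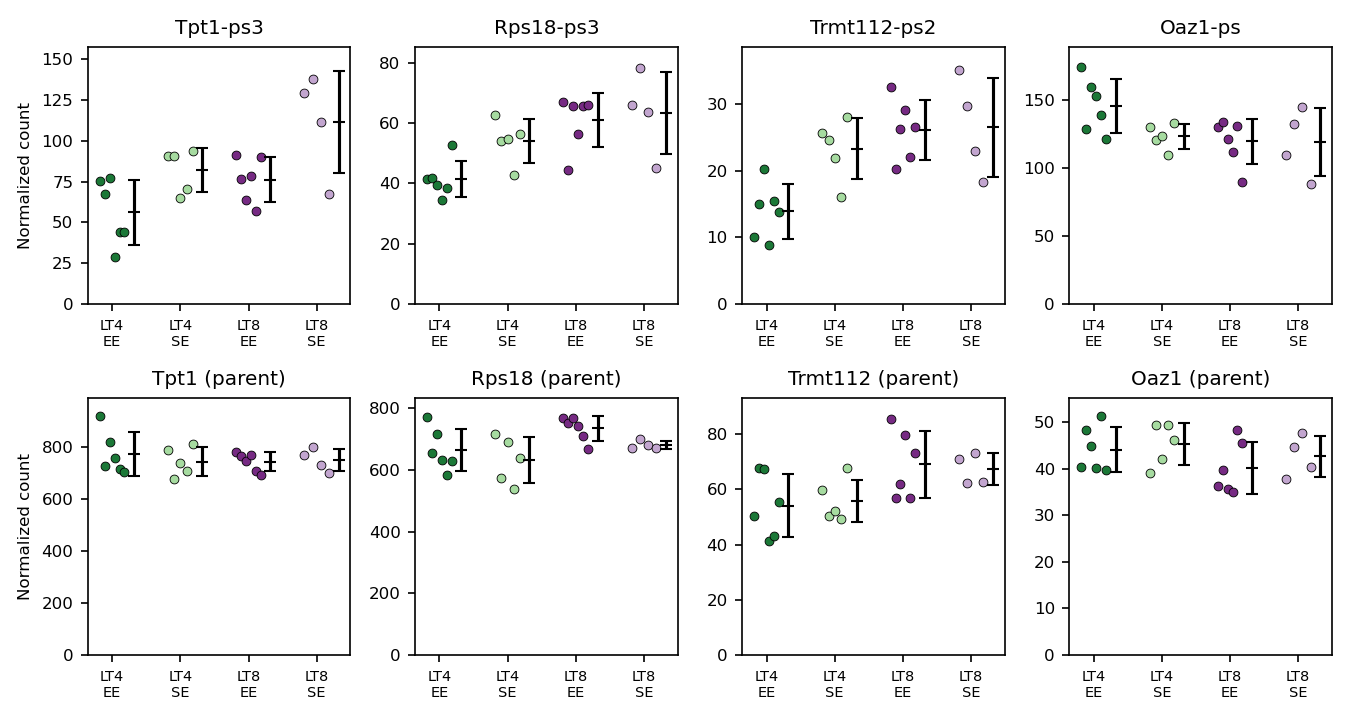
Normalized count of 4 named pseudogenes (top) and of their parents (bottom) in each sample of the 4 groups, with bars of mean ± SD and every axis starting at 0. Tpt1-ps3, Rps18-ps3 and Trmt112-ps2 have their lowest group mean in LT4 EE (56.2, 41.4 and 13.9), and Oaz1-ps has its highest there, at 146.

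Within a group, the spread of pseudogenes with a mean above 10 was close to that of all genes above 10. The parents, which lie at higher levels, had a larger variance relative to the mean. The lists were not matched on level. For genes with a mean above 10, the variance over the mean of the normalized counts had a median of 1.76 in 67 pseudogenes, 3.80 in 89 parents, 1.76 in 119 other processed pseudogenes and 1.63 in all 2727 genes.

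At the lower end, 5 pseudogenes were at 0 in all samples of a population. The share of all genes at 0 in a population was not counted, so these 5 are given as a description only. Ccnd3-ps, a copy of the cyclin D3 gene, had 5 molecules in 3 LT4 samples and 0 in LT8. Wdr46-ps (5 molecules in 3 samples), Mrps36-ps2 (5 in 4), Rps15a-ps1 (4 in 2) and Tpt1-ps2 (3 in 2) had 0 in LT4 and were seen in LT8. A count of 0 over a population allows up to 3 molecules, counting error only. With at most 5 molecules in the other population, these lay under the minimum mean of 2 and did not enter the reported test. Tpt1-ps2, with 87.9% identity to Tpt1 and all of its 472 windows its own, was the rarest of the 257, while Tpt1-ps3, identical to Tpt1, was the most abundant copy of the same gene.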

How the data were processed

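The authors sorted CD45+ CD11b- CD3+ cells into CD4+ and CD8+ fractions, tagged cDNA with unique molecular identifiers, sequenced it on an Ion Proton, trimmed with cutadapt (templates under 50 bases discarded), aligned with STAR 2.4.0a to mm10 and used the Drop-seq tools to count molecules in Ensembl GRCm38 genes. The deposited signal is the count divided by a DESeq2 size factor. Counting used the default settings of these tools, whose treatment of multiply matching reads and of strand the sources used here do not spell out. Dividing each column by the value of 1 molecule recovered whole molecules for 100% of values (tolerance 0.001). On these, edgeR called 195 genes higher and 174 lower of 7938 in LT4 against LT8, and 1 higher and 1 lower of 7939 in LT4 EE against SE. DESeq2 called 178 and 146, and 1 and 0.

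Samples were grouped by the labels. The main test was limma 3.58.1 (trend) in R 4.3.3 on log2(value + 1), two-sided, restricted to genes whose mean in the fitted samples exceeded 2, with Benjamini-Hochberg adjustment over all genes tested and a threshold of 0.05, so fold changes of low genes are understated. Other settings tried were 0.5 as pseudocount, means left unfiltered or required to exceed 10, equal totals, edgeR 4.0.16, DESeq2 1.42.0, a replicate block and leaving out each sample. Total molecules in the fit, B-cell markers in the fit and leaving out the 2 haemoglobin-rich libraries were added after seeing the data. LT4 and LT8 samples of 1 environment and number came from the same mouse, which gives the pairing; their deviations from the group means correlated at -0.0149 to 0.0354 over 9 pairs. EE and SE samples of 1 number were different mice. No 2 samples of a group were duplicates. The fits were tested on simulated data.

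The pseudogenes and lists were chosen with earlier results of these data known. Named with values were the 12 highest means, each pseudogene called in any of the 4 fits, up to 3 per direction and fit with the smallest p under 0.05, the 3 highest and 3 lowest shares, those at 0 in a population, and the parents of all these. Of the genes chosen, 2 are not reported here. Rpl9-ps3, Rpl19-ps1 and Slc2a4rg-ps were added after values were seen. Alignments used blastn 2.17.0 on GENCODE M21 transcripts, and those covering under 50% of the pseudogene were left out, a limit chosen after seeing the data. Python 3.11.15, NumPy 2.4.6, pandas 2.3.3, SciPy 1.17.1 and Matplotlib 3.10.9 did the rest.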

Additional observations from a re-analysis of the deposited data

Results flagged for a closer look

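In 16 of 222 groups of values of the named pseudogenes and their parents, 1 sample lay far from the others by Dixon's criterion, where chance gives about 1 in 20, or 11.1. No explanation of these was tested. Among pseudogenes with a mean above 2, Rps24-ps3 was at 12.9 in LT4 EE replicate 6 against 2.52 to 4.57 in the other LT4 EE samples. Rps2-ps6 was at 11.9 in LT4 SE replicate 3 against 2.25 to 3.09. Rpl31-ps12 was at 12.6 in LT8 EE replicate 4 against 6.87 to 8.70, and Rpl3-ps2 was at 37.5 in LT8 SE replicate 6 against 55.9 to 58.3.

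For the rarest pseudogenes the sample that stood apart held 1 to 3 molecules and the other samples of its group 0. This was so for Ccnd3-ps at 2.74 in LT4 SE replicate 4, Wdr46-ps at 0.940 in LT8 EE replicate 3 and Mrps36-ps2 at 0.931 in LT8 SE replicate 2. Rps15a-ps1 was at 0.966 in LT8 EE replicate 2 and at 2.79 in LT8 SE replicate 2, and Tpt1-ps2 was at 0.966 in LT8 EE replicate 2 and at 1.77 in LT8 SE replicate 3.

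Among parents, Rpl31 was at 443 in LT8 EE replicate 6 against 529 to 579, and Rpl36 was at 556 in LT4 EE replicate 3 against 446 to 485. Rps10 was at 549.8 in LT8 SE replicate 6 against 604 to 613, Rps16 at 893 in LT8 SE replicate 2 against 817 to 827, and Wdr46 at 14.0 in LT8 EE replicate 1 against 3.87 to 7.52. Rpl3-ps2 and Rps10 both stood apart in LT8 SE replicate 6, the library whose pseudogene share was the lowest of its group.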

How the results depend on the processing

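The count of pseudogenes called in LT4 against LT8, 2 in the reported fit, was 1 with no filter on means, 6 with a mean above 10, 1 with equal totals, 4 with edgeR (Rpsa-ps10 and Trmt112-ps2 besides the 2), 0 with the mouse as replicate block, 0 with total molecules in the fit, 0 with the B-cell markers in the fit and 1, Rpsa-ps10, without the 2 haemoglobin-rich libraries. It was 0 to 6 when single samples were left out, with 0 without LT4 EE replicate 4 or 5, LT4 SE replicate 5, LT8 EE replicate 1 or LT8 SE replicate 1 or 2, with 4 without LT4 SE replicate 6 or LT8 EE replicate 2, and with 6 without LT8 SE replicate 6. The cause was not tested. The adjusted p of Tpt1-ps3 there ranged from 0.0123 to 0.746 over 10 alternatives and that of Rps18-ps3 from 0.0267 to 0.799, both in limma, edgeR or DESeq2. The counts of 0 in LT4 and in the interaction kept that value under each alternative run, the replicate block included, and in LT8 the count was 0 to 1 over single samples left out. The replicate block rests on the 9 mice with both populations for LT4 against LT8, and in the comparisons of environments it pairs different mice that share only a number, whose deviations correlated at 0.00832 on average in LT4 (5 pairs) and 0.00522 in LT8 (4 pairs). It changed no other call of a named pseudogene. The median log2 fold change in LT4 stayed between -0.35 and -0.21 over samples left out, in LT8 it ran from -0.12 to 0.00, and in the interaction from -0.27 (without LT4 SE replicate 5) to -0.0975 (without LT8 SE replicate 6).

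The median share of 3.79% became 12.1% when all pseudogenes of a parent were summed (60 parents with a pseudogene above a mean of 2), the molecule share became 2.60% without Rps19-ps6, and the median percent of windows found in the parent, over the 122 aligned pseudogenes with a mean above 2, was 59.5% with windows of 50 bases and 34.7% with windows of 100 bases, each by construction. Of 370 values of single pseudogenes under alternatives, 327 kept their direction and side of the threshold, 36 lost and 7 gained a call, and none reversed. Depth limits pseudogenes with a mean of 2 or below, 127 of 257.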
